A study of Drosophila melanogaster with 15 samples.

Results

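The cuticle protein genes of Drosophila melanogaster were followed in larval eye discs that overexpressed Yap or Yki proteins of the fly, a placozoan or a choanoflagellate. They were taken by symbol, as every gene named Cpr with a number, Twdl, Lcp, Ccp84 or Pcp, and a gene was kept when its FPKM was at least 1 in at least 3 of the 15 libraries. FPKM counts fragments per kilobase of transcript and per depth of the library, so levels can be set beside each other between genes. Of 118 genes with such a symbol, 33 passed, among 9213 genes that passed the same filter in the whole data set. The 33 were 22 of 70 Cpr genes, 7 of 15 Lcp genes, 3 of 25 Twdl genes (TwdlE, TwdlF and TwdlW), the only Pcp gene and none of 7 Ccp84 genes.

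Insect cuticle is a layered coat of chitin fibres and proteins that an epithelium secretes at its apical face. Most Cpr, Lcp and Pcp products carry the Rebers-Riddiford domain, which binds chitin, while the Tweedle (Twdl) proteins form a separate family of cuticle proteins. Imaginal discs secrete pupal and adult cuticle only after the larval stage, under pulses of the steroid ecdysone, so these genes are mostly low in a third-instar disc. Yki and Yap are transcriptional coactivators held back by the Hippo pathway. They bind DNA through TEAD-family proteins, of which Scalloped is the fly member.

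Each library was made from polyadenylated RNA of the GFP-positive GMR domain, cut by surgery from 25 to 30 eye discs of third-instar larvae. All 5 groups of 3 libraries carried GMR-Gal4, which drives expression in the differentiating cells behind the morphogenetic furrow, and UAS-eGFP. The control carried nothing more, and its eyes were normal. The others added UAS-MonosigaYAP (Monosiga Yap, a choanoflagellate protein), UAS-MonosigaYAP+HumanTBD (Monosiga Yap-TBD, with a human TEAD-binding domain), UAS-DrosophilaYKI S168A (Yki S168A) or UAS-TrichoplaxYAP S81A (Trichoplax Yap S81A, a placozoan protein). Per the labels, the eyes of all 4 construct groups had differentiation defects, with strong ectopic proliferation under Monosiga Yap-TBD and Trichoplax Yap S81A and a middle degree of it under Yki S168A. The labels do not say that the libraries of a group came from separate crosses, so p-values measure the spread between these libraries.

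Estimated depths ran from 12.1 to 20.7 M fragments, and 8194 to 9104 genes reached an FPKM of 1. The median length of the cuticle protein transcripts was 804 bases, and at the lowest depth an FPKM of 1 rested on an estimated 1.9 to 15 fragments, with a median of 6.8. The photoreceptor markers, which stand for photoreceptors and not for the eye disc as a whole, summed to an FPKM of 270 to 345 in the control and 54.5 to 57.5 in Monosiga Yap-TBD. They summed to 251 to 352 in Monosiga Yap, 109 to 146 in Yki S168A and 100 to 143 in Trichoplax Yap S81A. Trichoplax Yap S81A replicate 1 stood apart. Its fat body markers summed to 4530, of which Fbp1 gave 2660 and Lsp2 1352, against 2.17 at the lowest in its group and 9 to 9.5 in the control. Results for that group are therefore given with and without this library where it matters.

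TwdlE made up most of the summed cuticle protein level in 3 construct groups. The summed FPKM of the 33 genes was 292 to 364 in control libraries and 299 to 479 in Monosiga Yap. It was 1041 to 1310 in Monosiga Yap-TBD, 697 to 1162 in Yki S168A and 2066 to 3123 in Trichoplax Yap S81A, so none of these 3 groups overlapped the control. Without TwdlE, Cpr97Eb and Cpr12A, the sum of the remaining genes was 237 to 313 in the control, 144 to 244 in Monosiga Yap-TBD, 172 to 260 in Yki S168A and 108 to 372 in Trichoplax Yap S81A. It was 266 to 424 in Monosiga Yap. Over these remaining 30 genes, Trichoplax Yap S81A replicate 1 was the only library of the other 3 construct groups above all control libraries. TwdlE made up 50.9 to 59.8% of the sum in Monosiga Yap-TBD, 70.9 to 82.5% of the sum in Yki S168A and 83.9 to 93.5% in Trichoplax Yap S81A.

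**Figure D1:**
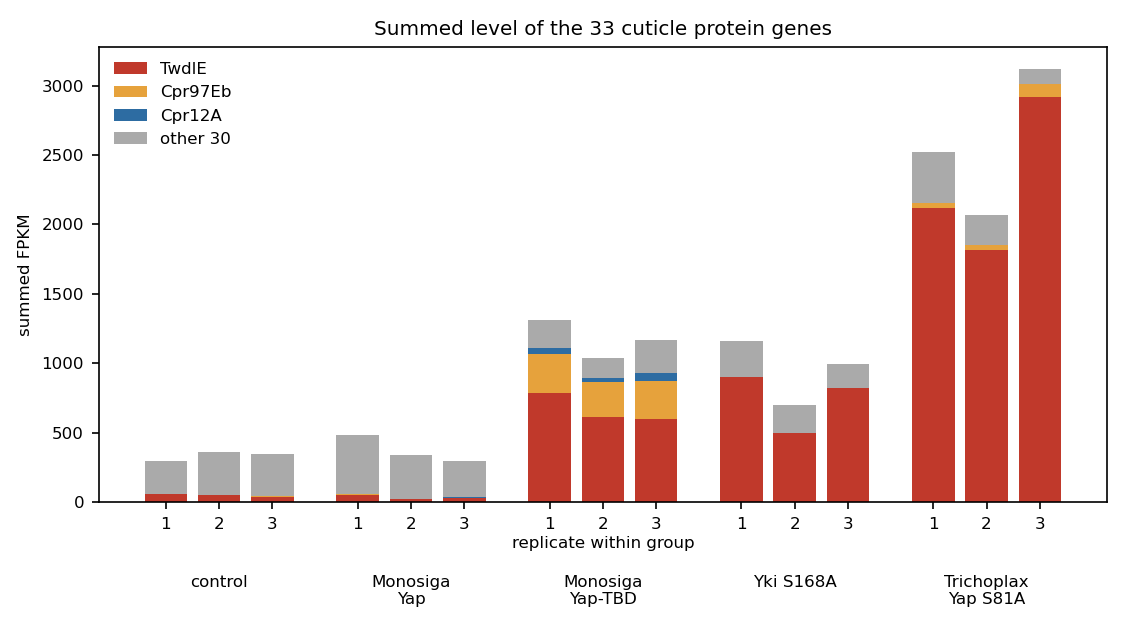
Summed FPKM of the 33 cuticle protein genes in each library (bars from 0, by replicate within group), divided into TwdlE, Cpr97Eb, Cpr12A and the other 30 genes. The bars of Monosiga Yap-TBD, Yki S168A and Trichoplax Yap S81A stand above those of the control, mainly through TwdlE, with Cpr97Eb and Cpr12A adding in Monosiga Yap-TBD.

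At most 10 of the 33 genes passed the test against the control under any construct, in both directions. Genes were called at a limma adjusted p under 0.05 over all 9213 tested genes, on log2(FPKM + 1). Against the control, 5 cuticle protein genes rose and 5 fell in Monosiga Yap-TBD, where 12.6% of all genes were called higher and 12.0% lower. In Trichoplax Yap S81A, 3 rose and 4 fell, beside 6.09% of all genes in each direction. In Yki S168A, 2 rose and 1 fell, beside 5.42% and 6.52%. In Monosiga Yap, 1 rose and 0 fell by limma, beside 0.228% and 0.0977%, while 4 of the 33 had an unadjusted p under 0.05. All 4 comparisons share the control libraries. These counts are 15.2% of the 33 in each direction in Monosiga Yap-TBD, 9.09% and 12.1% in Trichoplax Yap S81A and 6.06% and 3.03% in Yki S168A, so they differ from what the shares of all genes would give by at most 2 of the 33 genes, and the single call in Monosiga Yap rests on Lcp65Af. The libraries of the 2 groups did not overlap, with the construct higher or lower, for 4 and 2 of the 33 in Monosiga Yap (3.69% and 3.61% of all genes), 6 and 8 in Monosiga Yap-TBD (23.2% and 20.1%), 4 and 6 in Yki S168A (16.6% in each direction) and 4 and 8 in Trichoplax Yap S81A (19.6% and 15.7%). The median log2 fold change of the 33 was -0.30 in Monosiga Yap-TBD, -0.21 in Yki S168A, -0.36 in Trichoplax Yap S81A and 0.13 in Monosiga Yap, against 0.01, 0.00, 0.04 and -0.02 over all genes. In bulk tissue, fewer cells of a type and less RNA per cell cannot be told apart.

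**Figure D2:**
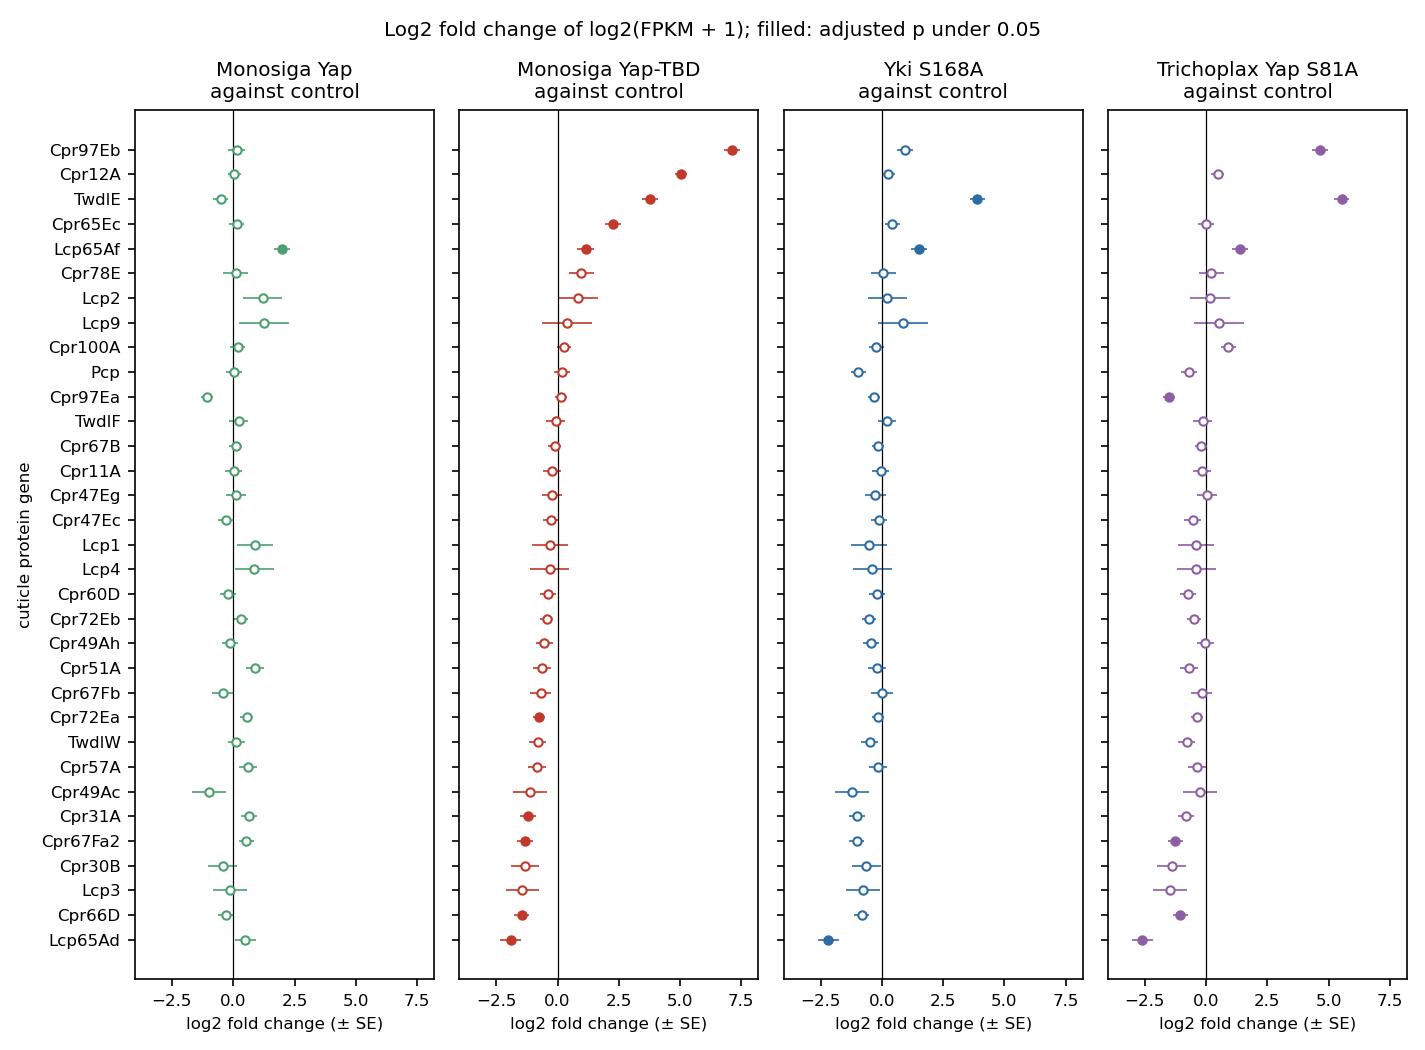
Log2 fold change of log2(FPKM + 1) with its SE (x axis) for the 33 cuticle protein genes (y axis, ordered by the Monosiga Yap-TBD value), one panel per construct against the control; filled points passed a limma adjusted p of 0.05. The values ran from -1.90 to 7.13 in Monosiga Yap-TBD and from -1.06 to 1.98 in Monosiga Yap.

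TwdlE, a Tweedle gene on chromosome 2L (7857957 to 7860838, build dm3, as for all coordinates here), was the highest cuticle protein gene of the data set by its mean over libraries. Its FPKM was 54.4, 49.6 and 39.3 in control replicates 1, 2 and 3, and 53.9, 20.6 and 31.3 in Monosiga Yap. It was 783, 615 and 596 in Monosiga Yap-TBD, 899, 494 and 822 in Yki S168A, and 2117, 1816 and 2919 in Trichoplax Yap S81A. Every library of the last 3 groups lay above every control and Monosiga Yap library, and every Trichoplax Yap S81A library lay above all others. The log2 fold changes were 3.77 ± 0.31 (SE; limma adjusted p 1.76e-06) in Monosiga Yap-TBD, 3.89 ± 0.31 (limma adjusted p 8.19e-06) in Yki S168A and 5.54 ± 0.31 (limma adjusted p 2.09e-07) in Trichoplax Yap S81A. Without Trichoplax Yap S81A replicate 1, the last was 5.58 (limma adjusted p 3.12e-06). In mean FPKM these were rises of 13.9-fold, 15.5-fold and 47.9-fold. Monosiga Yap did not pass, with a log2 fold change of -0.52 and a 95% interval of -1.19 to 0.15.

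The groups with a construct were also compared with each other for TwdlE. Monosiga Yap-TBD was 18.9-fold higher than Monosiga Yap (limma adjusted p 6.18e-07). Monosiga Yap-TBD and Yki S168A did not differ detectably, with a log2 difference of -0.12 (95% interval -0.78 to 0.55). Trichoplax Yap S81A was 3.09-fold above Yki S168A (limma adjusted p 0.0322). That call was lost, with limma adjusted p up to 0.156, when Yki S168A replicate 1, 2 or 3 or Trichoplax Yap S81A replicate 1 or 3 was left out. It was also lost with median-centred libraries and with only these groups in the fit (limma adjusted p 0.0522 and 0.0811). The gene next to TwdlE, lectin-28C, lies 26 bases away on the other strand, and whether the counting used strand is not stated. Its mean FPKM was 14.7 in the control, 10 in Monosiga Yap, 47.6 in Monosiga Yap-TBD, 69.5 in Yki S168A and 132 in Trichoplax Yap S81A, with limma adjusted p of 0.102, 0.0388 and 0.00571 in the last 3. Proct, 3801 bases away on the same strand, was at 0.166 in the control and rose to 3.58 in Monosiga Yap-TBD (limma adjusted p 1.31e-05) and 0.971 in Trichoplax Yap S81A (limma adjusted p 0.0375). Only in Monosiga Yap-TBD was the mean FPKM of Proct at least 1. Passing the filter therefore leaned on the group where Proct was highest.

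Cpr97Eb, a gene of the Cpr family, rose from an FPKM near 1 in Monosiga Yap-TBD and in Trichoplax Yap S81A. It lies on 3R from 22915417 to 22916845. The FPKM in control replicates 1, 2 and 3 was 0.335, 1.19 and 1.499, and in Monosiga Yap 1.29, 1.09 and 1.005. In Monosiga Yap-TBD it was 285, 248 and 277, in Yki S168A 2.60, 3.85 and 2.04, and in Trichoplax Yap S81A 34.3, 33.3 and 94.2. The 3 Monosiga Yap-TBD libraries were the highest of all and the Trichoplax Yap S81A libraries next. The log2 fold change against the control was 7.13 ± 0.34 (limma adjusted p 1.1e-08) in Monosiga Yap-TBD and 4.65 ± 0.34 (limma adjusted p 9.54e-07) in Trichoplax Yap S81A, or 268-fold and 53.5-fold in mean FPKM. Without Trichoplax Yap S81A replicate 1 the latter log2 fold change was 4.88 (limma adjusted p 4.73e-06). Without its replicate 3, the highest library, the ratio of means to the control was 33.6-fold. Yki S168A did not pass, at a log2 fold change of 0.95 (limma adjusted p 0.0856). The direct comparison of Monosiga Yap-TBD with Trichoplax Yap S81A gave a 5.01-fold difference (limma adjusted p 0.000396), and Trichoplax Yap S81A stood 19.0-fold above Yki S168A (limma adjusted p 4.77e-05). Without Trichoplax Yap S81A replicate 3 these became 8-fold and 11.9-fold.

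Its neighbour Cpr97Ea, 3076 bases away on the same strand with no listed gene between, did not show the same pattern. Cpr97Ea (3R, 22908854 to 22912341) had an FPKM of 16.1, 15.1 and 15.3 in the control and 4.34, 7.49 and 10 in Monosiga Yap. It stood at 13.8, 23.7 and 15.6 in Monosiga Yap-TBD, 12.7, 12.9 and 11.5 in Yki S168A, and 3.68, 5.46 and 5.34 in Trichoplax Yap S81A. All Trichoplax Yap S81A libraries were below all control libraries, and so were all those of Monosiga Yap. In Trichoplax Yap S81A Cpr97Ea fell by 1.51 on the log2 scale (SE 0.24, limma adjusted p 0.000857), to 0.312 of the control mean, while Cpr97Eb rose in the same libraries. The decrease in Monosiga Yap did not pass (log2 fold change -1.06, limma adjusted p 0.161), and Monosiga Yap-TBD stood 2.43-fold above Monosiga Yap (limma adjusted p 0.00225). A lower level in Trichoplax Yap S81A than in Yki S168A (log2 fold change -1.21, limma adjusted p 0.0442) was lost, at limma adjusted p of 0.0852 to 0.224, when any 1 of the 6 libraries of these groups was left out. It was also lost at a pseudocount of 0.1, with no filter on low values, without robust moderation and with only these groups in the fit (limma adjusted p 0.0501 to 0.066).

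Cpr12A and Cpr65Ec, both of the Cpr family, stood highest in Monosiga Yap-TBD. They reached an FPKM of 1 in all libraries of that group alone, so passing the filter already required a high level there. For Cpr12A (X, 13437676 to 13438952) the FPKM was 0.429, 0.285 and 0.213 in the control, 0.609, 0.279 and 0.184 in Monosiga Yap, 0.430, 0.591 and 0.726 in Yki S168A, and 0.432, 0.511 and 1.73 in Trichoplax Yap S81A. It was 41.1, 33.3 and 53.9 in Monosiga Yap-TBD, above every other library. The log2 fold change was 5.04 ± 0.26 against the control (limma adjusted p 2.24e-08), and 5, 4.77 and 4.57 against Monosiga Yap, Yki S168A and Trichoplax Yap S81A (limma adjusted p 2.81e-08, 8.76e-08 and 1.09e-07). Control values rested on an estimated 1.86 to 3.71 fragments a library. The ratio of means to Monosiga Yap was 119.7-fold, or 184.8-fold without Monosiga Yap replicate 1, and that to Trichoplax Yap S81A was 48-fold, or 90.8-fold without its replicate 3. Cpr65Ec (3L, 7086309 to 7086943) was listed at 0 in all control and all Trichoplax Yap S81A libraries, and was 2.66, 3.92 and 5.06 in Monosiga Yap-TBD. Among the other libraries only Monosiga Yap replicate 1, at 0.323, and Yki S168A replicate 3, at 1.48, were above 0. The log2 fold change against the control was 2.26 ± 0.32 (limma adjusted p 0.000131).

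**Figure D3:**
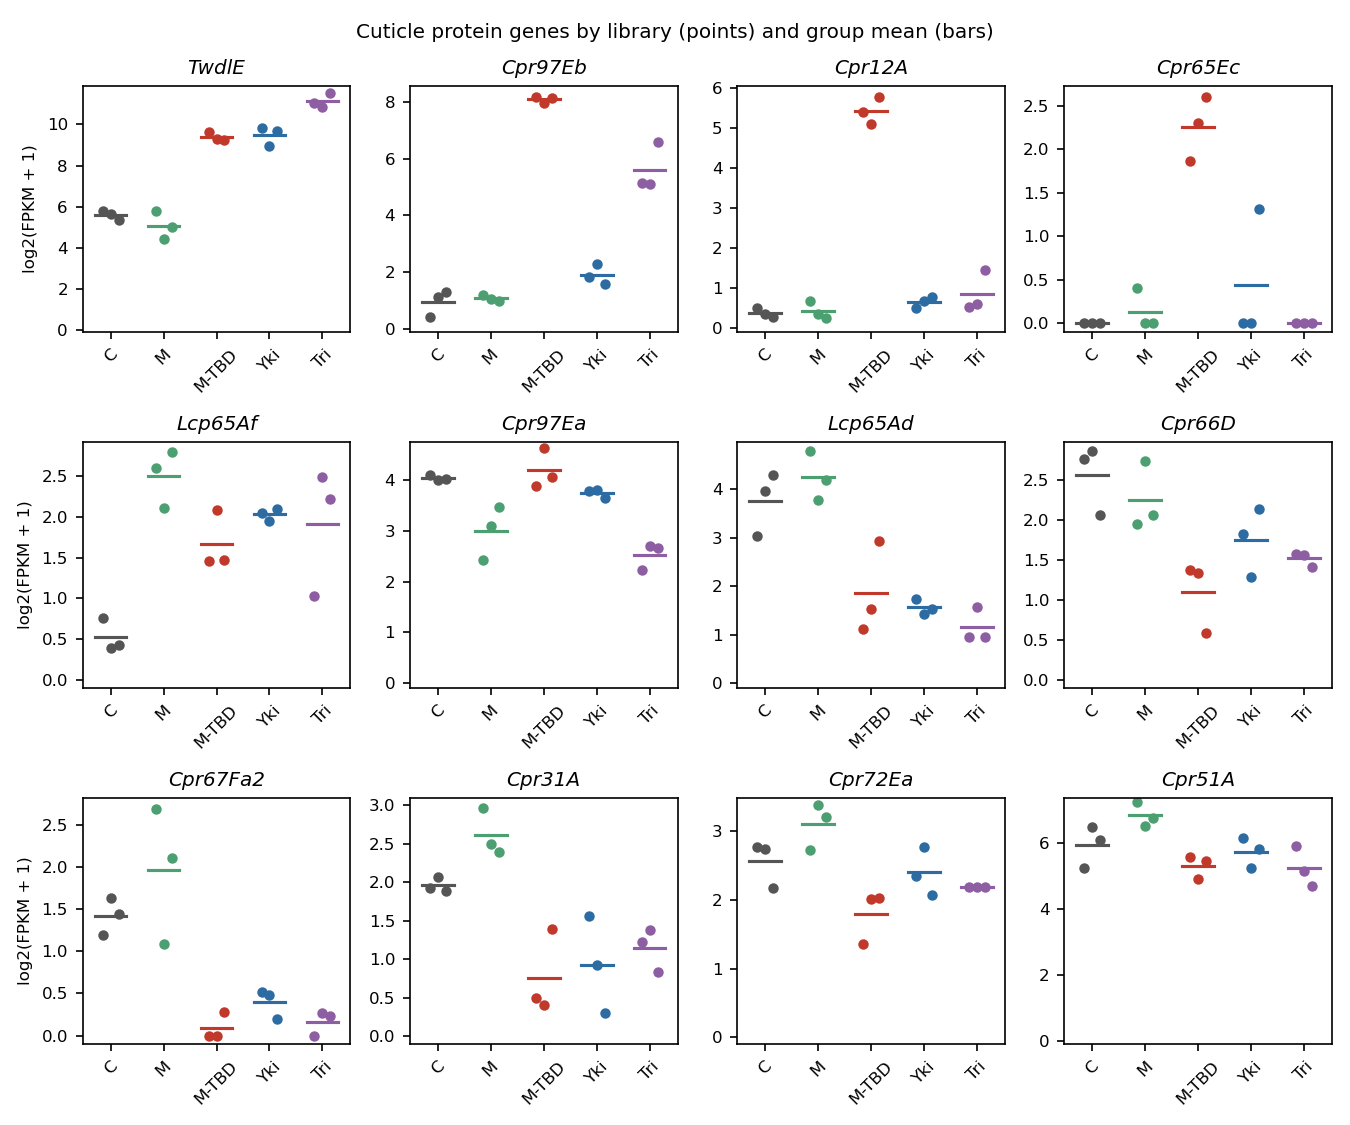
Log2(FPKM + 1) by library (points; bars are group means) for 12 cuticle protein genes in the control (C), Monosiga Yap (M), Monosiga Yap-TBD (M-TBD), Yki S168A (Yki) and Trichoplax Yap S81A (Tri). TwdlE stands above the control in M-TBD, Yki and Tri, Cpr97Eb in M-TBD and Tri, and Cpr12A and Cpr65Ec in M-TBD, while Lcp65Ad lies below the control in these 3 groups.

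In the Lcp65A cluster on 3L, genes for larval cuticle proteins, Lcp65Af rose against the control in every construct group and Lcp65Ad fell in all but Monosiga Yap, where its log2 fold change of 0.48 did not pass. The pair lies 6636 bases apart with 3 cuticle genes between that failed the filter. Lcp65Af (6129404 to 6129871) had an FPKM of 0.693, 0.307 and 0.345 in the control and 5.07, 3.31 and 5.94 in Monosiga Yap. It was 1.74, 3.22 and 1.77 in Monosiga Yap-TBD, 3.13, 2.87 and 3.29 in Yki S168A, and 1.05, 4.62 and 3.64 in Trichoplax Yap S81A. No construct library overlapped the control, whose values rested on about 1.36 to 2.72 estimated fragments a library. Lcp65Af reached an FPKM of 1 in construct libraries only, so passing the filter already required a level above the control in some of them. The log2 fold change was 1.98 in Monosiga Yap (SE 0.33, limma adjusted p 0.0177), 1.14 in Monosiga Yap-TBD (limma adjusted p 0.0202), 1.51 in Yki S168A (limma adjusted p 0.00794) and 1.39 in Trichoplax Yap S81A (limma adjusted p 0.0123). The Monosiga Yap call was lost, with limma adjusted p up to 0.0935, without control replicate 2 or 3 or Monosiga Yap replicate 1 or 3. The call in Monosiga Yap-TBD did not survive the removal of its replicate 2 or of a control library (replicate 2 or 3; limma adjusted p up to 0.093), and the Trichoplax Yap S81A call without its replicate 2 or 3 (up to 0.0609).

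Lcp65Ad (6136507 to 6137109) had an FPKM of 7.19, 14.6 and 18.4 in the control and 26.4, 12.7 and 17.1 in Monosiga Yap. It was 1.16, 1.88 and 6.61 in Monosiga Yap-TBD, 2.32, 1.704 and 1.88 in Yki S168A, and 0.934, 1.99 and 0.937 in Trichoplax Yap S81A. The lowest control value stood just above the highest Monosiga Yap-TBD value, so the groups did not overlap. The level fell by 1.90 (limma adjusted p 0.00488), 2.19 (limma adjusted p 0.00402) and 2.60 (limma adjusted p 0.00104) on the log2 scale in these 3 groups. The ratio of means in Monosiga Yap-TBD was 0.240, and 0.114 without its replicate 3. Of 4 tested photoreceptor markers, 4, 3 and 3 were called lower in these groups, beside 12.0%, 6.52% and 6.09% of all genes. Their part in this result was not tested.

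Cpr66D, which encodes a protein of the adult corneal lens, was lower in Monosiga Yap-TBD and Trichoplax Yap S81A. Its FPKM was 5.78, 6.28 and 3.20 in the control, 1.59, 1.53 and 0.504 in Monosiga Yap-TBD, and 1.995, 1.97 and 1.67 in Trichoplax Yap S81A. It was 2.88, 5.66 and 3.18 in Monosiga Yap and 2.56, 1.44 and 3.41 in Yki S168A, which reached into the range of the control. It fell by 1.46 (limma adjusted p 0.00282) in Monosiga Yap-TBD and by 1.04 (limma adjusted p 0.038) in Trichoplax Yap S81A. The second call was lost, at limma adjusted p up to 0.147, without control replicate 1 or 2 or any 1 of the 3 Trichoplax Yap S81A libraries. It was also lost with a replicate block (limma adjusted p 0.0508), at a pseudocount of 0.1 (0.0682) and with no filter on low values (0.0547).

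Cpr67Fa2 was low and became lower. Its FPKM was 1.29, 2.09 and 1.71 in the control, 0, 0 and 0.219 in Monosiga Yap-TBD, and 0, 0.205 and 0.174 in Trichoplax Yap S81A. It was 5.41, 1.12 and 3.32 in Monosiga Yap and 0.431, 0.395 and 0.146 in Yki S168A. Cpr67Fa2 reached an FPKM of 1 only in control and Monosiga Yap libraries, so it passed the filter only through the groups where it was higher. It fell by 1.33 (limma adjusted p 0.00719) in Monosiga Yap-TBD and by 1.25 (limma adjusted p 0.0184) in Trichoplax Yap S81A. The latter was lost without control replicate 2 or 3 or Trichoplax Yap S81A replicate 1 or 3 (limma adjusted p up to 0.0761). Cpr67Fa2 has a close copy, Cpr67Fa1, so its counts are uncertain. Cpr67Fb, 1675 bases away, was among the 5 highest members and passed in no comparison with all libraries at equal weight: its FPKM was 44.5, 63.9 and 52.9 in the control, 41.4, 63.4 and 23.3 in Monosiga Yap, 36.1, 18.6 and 51.9 in Monosiga Yap-TBD, 67.6, 62.3 and 35.7 in Yki S168A, and 67.5, 52.7 and 28.6 in Trichoplax Yap S81A.

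Cpr31A and Cpr72Ea, both Cpr genes, passed the test against the control as lower in Monosiga Yap-TBD. Cpr31A had an FPKM of 2.79, 3.21 and 2.71 in the control, 6.80, 4.66 and 4.24 in Monosiga Yap, and 0.408, 0.324 and 1.63 in Monosiga Yap-TBD. It was 1.96, 0.897 and 0.236 in Yki S168A and 1.34, 1.6 and 0.789 in Trichoplax Yap S81A, so every library of these 3 groups lay below every control library. In Monosiga Yap-TBD it fell by 1.20 (limma adjusted p 0.0152), a call that did not pass once replicate 2 of the control, or replicate 1 or 2 of Monosiga Yap-TBD, was removed (limma adjusted p up to 0.0707). The ratio of means there was 0.272, and 0.126 without Monosiga Yap-TBD replicate 3. The log2 fold changes in Yki S168A (-1.03, limma adjusted p 0.0557) and Trichoplax Yap S81A (-0.82, limma adjusted p 0.128) did not pass. Differences of Cpr31A between these 3 groups did not pass either (limma adjusted p 0.623 to 0.952). Cpr72Ea had 5.80, 5.71 and 3.49 in the control, 5.64, 9.43 and 8.25 in Monosiga Yap, and 1.57, 3.03 and 3.08 in Monosiga Yap-TBD. It was 4.09, 5.85 and 3.21 in Yki S168A and 3.54, 3.58 and 3.56 in Trichoplax Yap S81A, and neither passed (limma adjusted p 0.767 and 0.401). In Monosiga Yap-TBD it fell by 0.76 (limma adjusted p 0.0431), which no longer passed once replicate 1 or 2 of either group, or Trichoplax Yap S81A replicate 1, was removed (limma adjusted p up to 0.187). It was also lost with no filter on low values (0.0592) and with only the compared groups in the fit (0.0696).

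Monosiga Yap-TBD set against Monosiga Yap, which compares the proteins with and without the added TEAD-binding domain, gave the most calls. It also gave the most calls over all genes. Of the 33 genes 5 were higher and 7 lower, or 15.2% and 21.2%, beside 14.3% and 12.2% of all genes. The 5 were Cpr97Eb, Cpr12A, TwdlE, Cpr65Ec and Cpr97Ea, and the 7 were Lcp65Ad (log2 fold change -2.39), Cpr67Fa2 (-1.86), Cpr31A (-1.85), Cpr51A (-1.53), Cpr57A (-1.43), Cpr72Ea (-1.31) and Cpr66D (-1.15), with limma adjusted p of 0.000632 to 0.012. The Cpr66D call was lost without Monosiga Yap replicate 2 or Monosiga Yap-TBD replicate 3 (limma adjusted p up to 0.0588). With only these groups in the fit, Cpr66D and Cpr57A did not pass (limma adjusted p 0.0505 and 0.0542). Cpr51A had an FPKM of 36.7, 88.4 and 67.0 in the control, 149.6, 91.2 and 106 in Monosiga Yap, and 46.6, 29.1 and 42.4 in Monosiga Yap-TBD. It was 69.7, 36.6 and 55.2 in Yki S168A and 58.5, 34.2 and 25.2 in Trichoplax Yap S81A. The Monosiga Yap libraries were above all others for Cpr51A, and the comparison with the control did not pass (log2 fold change 0.90, limma adjusted p 0.898). Cpr57A had 4.47, 5.17 and 6.16 in Monosiga Yap and 0.195, 1.69 and 2.81 in Monosiga Yap-TBD, a ratio of means of 0.297, or 0.179 without Monosiga Yap-TBD replicate 3. Cpr51A overlaps CG30197 on the other strand and Cpr57A overlaps Obp57d on the same strand, and reads of such neighbours could not be told apart.

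The other comparisons between constructs gave fewer calls, both of the 33 and of all genes. Trichoplax Yap S81A against Yki S168A gave 2 higher and 1 lower, which were Cpr97Eb, TwdlE and Cpr97Ea. That was 6.06% and 3.03% of the 33, beside 0.347% and 0.163% of all genes. The TwdlE and Cpr97Ea calls were lost under other settings, as given above. Monosiga Yap-TBD against Yki S168A gave 4 higher and 0 lower by limma, namely Cpr97Eb, Cpr12A, Cpr65Ec and Pcp. Higher were 12.1% of the 33, beside 3.39% of all genes, while 3.74% of all genes were lower. An unadjusted p under 0.05 was found for 5 of the 33. Pcp, the pupal cuticle protein gene, had an FPKM of 5.20, 5.45 and 2.95 in Monosiga Yap-TBD and 1.94, 1.14 and 1.31 in Yki S168A (log2 fold change 1.15, limma adjusted p 0.0457). The call was lost without Monosiga Yap-TBD replicate 1 or 2 or any 1 Yki S168A library (limma adjusted p up to 0.178). It was also lost at a pseudocount of 0.1, with no filter, with median-centred libraries and with only these groups in the fit (limma adjusted p 0.0533 to 0.0707), and the last setting also ended the Cpr65Ec call (0.0501). Pcp overlaps ade3 on the other strand. Monosiga Yap-TBD against Trichoplax Yap S81A gave 4 higher and 1 lower, namely Cpr12A, Cpr97Eb, Cpr65Ec and Cpr97Ea higher and TwdlE lower. That was 12.1% and 3.03% of the 33, beside 2.98% and 3.33% of all genes.

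Cpr49Ac, one of the 5 highest members, had its highest value in 1 library that stood apart. Its FPKM was 50.8, 69.6 and 34.2 in the control, 19.7, 30.4 and 25.3 in Monosiga Yap, 17.4, 19.8 and 31.9 in Monosiga Yap-TBD and 21.2, 20.7 and 21.1 in Yki S168A. In Trichoplax Yap S81A it was 180 in replicate 1, the library with the high fat body markers, and 26.5 and 13.96 in the others. With all 15 libraries at equal weight in the fit it was called in no comparison, while with libraries weighted by their estimated quality (limma array weights) it was called lower in Monosiga Yap-TBD. With only the compared groups in the fit it was called lower in Monosiga Yap-TBD and Yki S168A. Without Trichoplax Yap S81A replicate 1, it was lower than the control in Monosiga Yap-TBD (log2 fold change -1.12, limma adjusted p 0.0133), Yki S168A (-1.20, 0.0174) and Trichoplax Yap S81A (-1.32, 0.0222). Pcp was then also lower in Yki S168A (-0.95, 0.0401). The counts of genes called in Trichoplax Yap S81A against the control became 3 higher and 3 lower, since Cpr66D and Cpr67Fa2 no longer passed. In the authors' deposited table, the natural log ratio of Cpr49Ac over the control was -0.747 in Monosiga Yap, -0.814 in Monosiga Yap-TBD and -0.861 in Yki S168A. The adjusted scores in the authors' deposited table were 0.0246, 7.68e-05 and 5.30e-05.

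The genes for larval cuticle proteins Lcp1 to Lcp4 and Lcp9, of which the first 4 lie within 2R with gaps of 869 to 2735 bases between neighbours, varied widely between the replicates of a group. Their summed FPKM in replicates 1, 2 and 3 was 30.0, 11.6 and 65.3 in the control, 100, 41.2 and 33.4 in Monosiga Yap, 38.6, 7.06 and 33.2 in Monosiga Yap-TBD, 39.3, 25.6 and 10.9 in Yki S168A, and 22.2, 41.2 and 6.11 in Trichoplax Yap S81A. All 5 genes were highest in control replicate 3 and in Trichoplax Yap S81A replicate 2 within their groups, and all 5 were lowest in Monosiga Yap-TBD replicate 2, Yki S168A replicate 3 and Trichoplax Yap S81A replicate 3. None passed in any comparison with all 15 libraries at equal weight in the fit. Lcp1 and Lcp2, and Lcp3 and Lcp4, are close copies whose reads may have been shared.

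**Figure D4:**
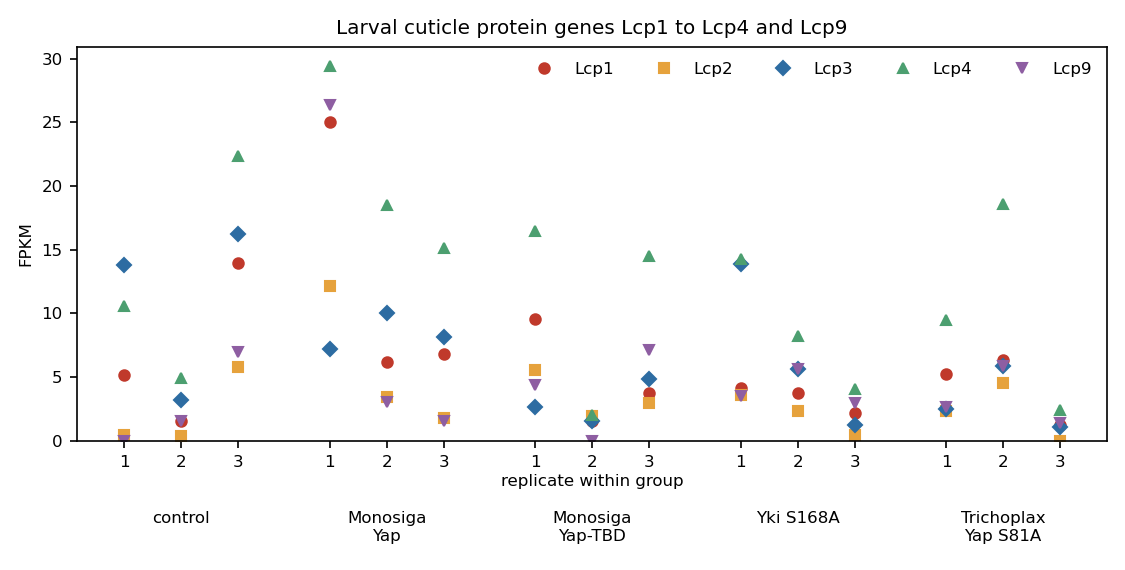
FPKM of Lcp1, Lcp2, Lcp3, Lcp4 and Lcp9 by library (replicate within group). Within each group the 5 genes tend to be high or low in the same library, from a sum of 11.6 to 65.3 in the control.

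The remaining members passed in no comparison with all 15 libraries at equal weight in the fit. Of the 19 genes called in none of 8 comparisons, 10 were called in at least 1 comparison when libraries were weighted by their estimated quality. The share of all genes that gained a call this way is not given, so this count does not set the 19 genes apart. Cpr78E, which is not low, reached a group mean of 23.1 (Monosiga Yap-TBD), with log2 fold changes of 0.07 to 0.98 against the control. Cpr100A, Cpr11A, Cpr30B, Cpr47Ec, Cpr47Eg, Cpr49Ah, Cpr60D, Cpr67B, Cpr72Eb, TwdlF and TwdlW had highest group means of 0.762 (Cpr11A) to 3.78 (Cpr60D). The smallest limma adjusted p among the 19 was 0.0568, for Cpr72Eb. The median coefficient of variation within groups was 42.7% for members in all. The mean was highest in Monosiga Yap for 18 of the 33 genes and in the control for 5, and it was lowest in Monosiga Yap-TBD for 10 and in Trichoplax Yap S81A for 9. This order was not counted over all genes, so it is not known to be particular to the 33. Only Lcp65Af was called in Monosiga Yap against the control.

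**Figure D5:**
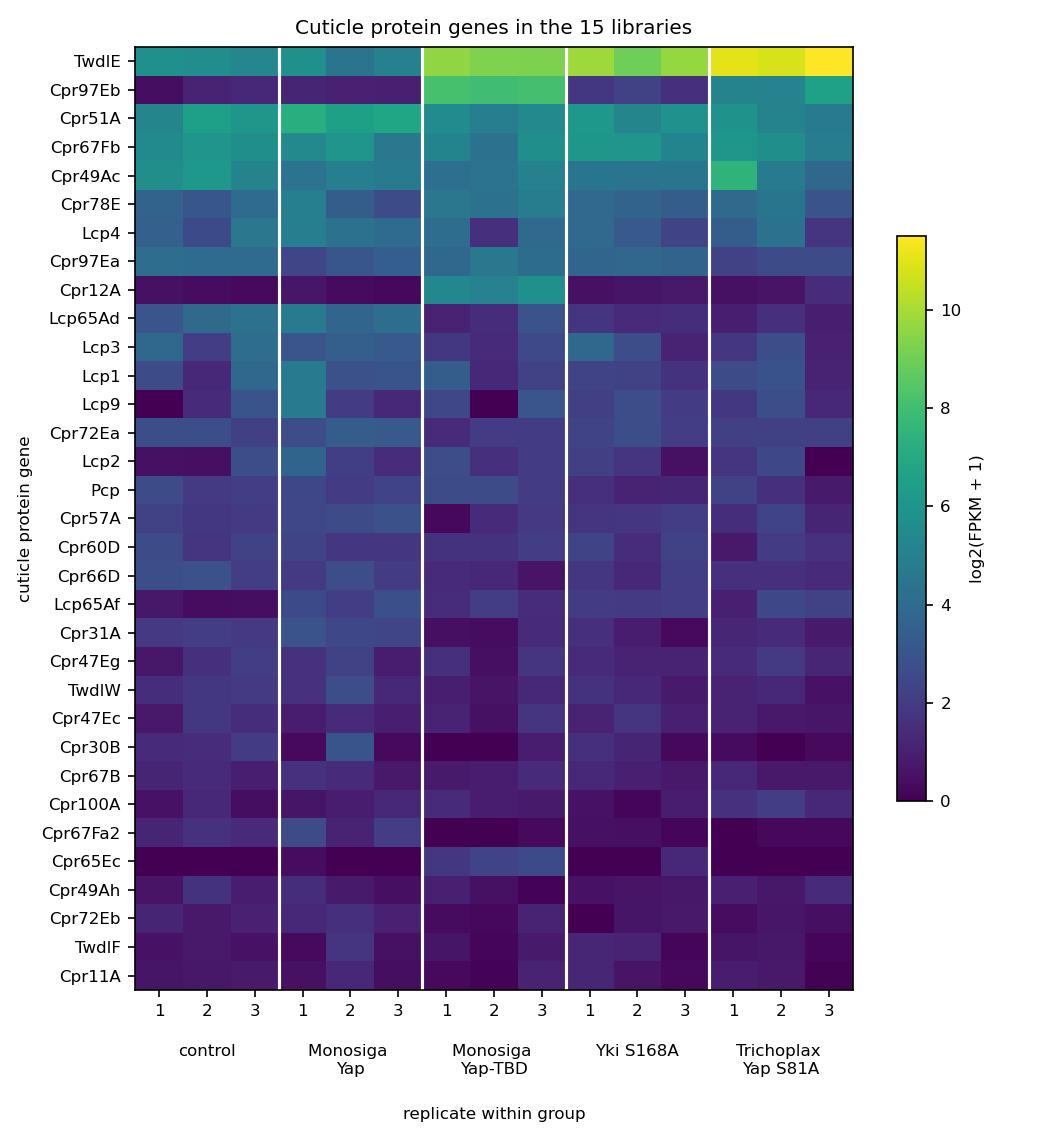
Log2(FPKM + 1) of the 33 cuticle protein genes (rows, by mean level) in the 15 libraries (columns, replicate within group). TwdlE, Cpr97Eb and Cpr12A stand out in some construct groups, and most rows show no step between groups.

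The other 85 genes with such symbols failed the filter, of which 11 were listed at 0 in every library. Just outside it, with a third-highest FPKM of 0.966, 0.938 and 0.918, were TwdlZ, TwdlX and Cpr62Bc, and just inside were TwdlF at 1.14 and Cpr11A at 1.23. The highest value of any was 2.23, for Cpr47Ee in 1 library. All 7 Ccp84 genes failed (Ccp84Aa, Ccp84Ab, Ccp84Ac, Ccp84Ad, Ccp84Ae, Ccp84Af and Ccp84Ag). So did 22 Twdl genes, which were TwdlB, TwdlC, TwdlD, TwdlG, TwdlH, TwdlJ, TwdlK, TwdlL, TwdlM, TwdlN, TwdlO, TwdlP, TwdlQ, TwdlR, TwdlS, TwdlT, TwdlV, TwdlX, TwdlY, TwdlZ, Twdlalpha and TwdlBeta. The 8 Lcp genes were Lcp65Aa, Lcp65Ab1, Lcp65Ab2, Lcp65Ac, Lcp65Ae, Lcp65Ag1, Lcp65Ag2 and Lcp65Ag3. The remaining 48 were Cpr genes, among them Cpr23B, Cpr35B, Cpr47Ea, Cpr49Aa, Cpr50Ca, Cpr56F, Cpr62Ba, Cpr64Aa, Cpr65Av, Cpr66Cb, Cpr72Ec, Cpr73D, Cpr76Ba, Cpr78Ca, Cpr92A and Cpr5C.

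Of 17 tested genes for chitin synthesis and assembly, 8 were called against the control in at least 1 construct group. No share of all genes is given for this joint count, so the calls are set beside all genes group by group. In Monosiga Yap 1 rose, or 5.88% beside 0.228% of all genes. In Monosiga Yap-TBD 3 rose and 1 fell, or 17.6% and 5.88% beside 12.6% and 12.0%. In Yki S168A 3 rose and 2 fell, or 17.6% and 11.8% beside 5.42% and 6.52%. In Trichoplax Yap S81A 2 rose and 2 fell, or 11.8% each way beside 6.09%. The chitin synthase kkv was at a mean FPKM of 80.7 in the control and 80.1 in Monosiga Yap-TBD and passed in no comparison with the control. The chitin deacetylase gene Cda5 rose from 1.44 to 9.16 in Monosiga Yap (limma adjusted p 0.00221). The gene exp, needed for chitin deposition, rose from 10.9 to 35.3 in Monosiga Yap-TBD (limma adjusted p 0.00176), and the deacetylase gene serp rose from 116 to 188, 216 and 219 in Monosiga Yap-TBD, Yki S168A and Trichoplax Yap S81A (limma adjusted p 0.00113, 0.000531 and 0.00032). The chitin-binding obst-A fell from 213 to 109, 92.0 and 93.8 there (limma adjusted p 0.000195, 0.000126 and 0.000107). Gasp rose from 483 to 735 and 945 in Monosiga Yap-TBD and Yki S168A (limma adjusted p 0.0072 and 0.000777), obst-B rose in Yki S168A (limma adjusted p 0.0134) and verm in Trichoplax Yap S81A (limma adjusted p 0.0253), and Cda4 fell in Yki S168A and Trichoplax Yap S81A (limma adjusted p 0.011 and 0.00568). Gasp, serp and verm also mark trachea and are themselves among its 6 markers here. The marker sum therefore rises with them and is no separate reading of tracheal content. It was 1110 to 1290 in the control and 1920 to 2080 in Yki S168A, with 1530 to 1670 in Monosiga Yap-TBD and 1460 to 1680 in Trichoplax Yap S81A. The part of trachea in these results was not tested.

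Among 12 tested chitinases and chitinase-like genes, 2 rose and 3 fell in Monosiga Yap-TBD (16.7% and 25%, beside 12.6% and 12.0% of all genes), 1 rose and 1 fell in Yki S168A (8.33% each way, beside 5.42% and 6.52%), 1 rose and 2 fell in Trichoplax Yap S81A (8.33% and 16.7%, beside 6.09% each way), and 0 were called by limma in Monosiga Yap. Cht7 fell from 11.7 to 1.92 in Monosiga Yap-TBD (limma adjusted p 0.000157), and Idgf6 fell from 41.3 to 9.35, 9.97 and 9.03 in Monosiga Yap-TBD, Yki S168A and Trichoplax Yap S81A (limma adjusted p 0.000261, 0.00121 and 0.000327). Cht6 rose in those 3 groups (limma adjusted p 0.00405, 0.0484 and 0.0097), Cht3 rose in Monosiga Yap-TBD (limma adjusted p 0.0289), and Cht2 fell in Monosiga Yap-TBD and Trichoplax Yap S81A (limma adjusted p 0.00569 and 0.0108). Among 17 tanning and pigment genes, 1 rose in Monosiga Yap (5.88%, beside 0.228% of all genes), 2 rose in Monosiga Yap-TBD (11.8%, beside 12.6%), and 1 rose and 1 fell in Trichoplax Yap S81A (5.88% each way, beside 6.09%). The pigment gene y was at 0.0704 in the control and rose to 3.83 in Monosiga Yap (limma adjusted p 0.00426), 0.979 in Monosiga Yap-TBD (limma adjusted p 0.045) and 1.43 in Trichoplax Yap S81A (limma adjusted p 0.0173). With so low a control mean, y passed the filter through construct libraries only. Passing already required a level above the control in some of them, and the list shares that count y carry the same limit. CG42345, listed for the cuticle-hardening laccase, rose from 23.7 to 45.1 in Monosiga Yap-TBD (limma adjusted p 0.000318), and amd fell in Trichoplax Yap S81A (limma adjusted p 0.0445). The catecholamine genes ple and Ddc did not pass (limma adjusted p of at least 0.409). In Yki S168A, limma called 0 tanning genes.

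Of 25 genes of the ecdysone response, 4 rose and 4 fell in Monosiga Yap-TBD (16% each way, beside 12.6% and 12.0% of all genes), 1 rose in Monosiga Yap (4%, beside 0.228%), 2 rose in Yki S168A (8%, beside 5.42%) and 3 rose in Trichoplax Yap S81A (12%, beside 6.09%). Cyp18a1, which encodes an ecdysteroid-degrading enzyme, rose from 0.260 to 21.7 in Monosiga Yap-TBD (limma adjusted p 7.94e-09) and was at 0.235 and 0.254 in Yki S168A and Trichoplax Yap S81A. Its libraries showed 19.8, 19.2 and 26.2 in Monosiga Yap-TBD against 0.0862 to 0.347 in all others. Cyp18a1 thus reached an FPKM of 1 in Monosiga Yap-TBD alone, so passing the filter already required a high level there. ImpL3 and ImpL2 rose there from 4.35 to 33.3 and from 544 to 1296 (limma adjusted p 2.98e-06 and 0.000616), and ImpL3 also in Yki S168A and Trichoplax Yap S81A (limma adjusted p 0.0341 and 0.000761). Eip71CD rose in all 4 construct groups (limma adjusted p 0.00485 to 0.0469) and crol in Trichoplax Yap S81A (limma adjusted p 0.0459). ImpE3, ImpE2, Eip93F and Hr39 fell in Monosiga Yap-TBD (limma adjusted p 0.00262 to 0.0282). The ecdysone receptor gene EcR passed in none of these comparisons, at 30.7 in the control and 40.5 in Monosiga Yap-TBD. The epidermal regulator grh was at 65.8 in the control and 60.1 to 79.1 in the construct groups, with no call against the control, and ftz-f1 and Blimp-1 passed in none of these comparisons either. Of 7 tested epidermal regulators, ovo rose and sn fell in Monosiga Yap-TBD, Yki S168A and Trichoplax Yap S81A, and f rose in the last 2, so that 14.3%, 28.6% and 28.6% rose and 14.3% fell in each. Of all genes, 12.6%, 5.42% and 6.09% were called higher in these 3 groups and 12.0%, 6.52% and 6.09% lower. Of 11 zona pellucida genes of the apical matrix, qsm rose in those 3 groups, pio in Yki S168A and Trichoplax Yap S81A, and dp in Monosiga Yap-TBD. That was 18.2% of the list in each group, beside the same 12.6%, 5.42% and 6.09% of all genes. Of 3 other cuticle protein genes tested, ect rose in Trichoplax Yap S81A from 14.8 to 28.0 (limma adjusted p 0.0313), or 33.3% of that list beside 6.09% of all genes.

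Gene lists chosen as markers of other cells that the dissected piece could hold were also read. Their genes need not be confined to those cells, so a change in them does not measure how many such cells were present. Of 8 markers of antenna and head capsule, Dll and hth were called higher in Yki S168A and Trichoplax Yap S81A, oc lower in Monosiga Yap-TBD and Trichoplax Yap S81A, and ss and lz lower in Monosiga Yap-TBD. Called higher were 25% of this list in both Yki S168A and Trichoplax Yap S81A, beside 5.42% and 6.09% of all genes. Called lower were 37.5% in Monosiga Yap-TBD and 12.5% in Trichoplax Yap S81A, beside 12.0% and 6.09% of all genes. Of 4 peripodial markers, hh and Tl were higher in Yki S168A and Trichoplax Yap S81A, while odd was higher and hh lower in Monosiga Yap-TBD. That was 50% higher in both Yki S168A and Trichoplax Yap S81A, beside 5.42% and 6.09% of all genes. In Monosiga Yap-TBD it was 25% each way, beside 12.6% and 12.0%. Hemocyte markers summed to 29.1 to 55.3 in the control, 12.6 to 38.4 in Monosiga Yap, 13.2 to 28.3 in Monosiga Yap-TBD, 12.4 to 18.9 in Yki S168A and 8.03 to 31.6 in Trichoplax Yap S81A. Monosiga Yap-TBD and Yki S168A lay wholly below the control there, with Pxn alone called, lower in Yki S168A (16.7% of the list, beside 6.52% of all genes). Muscle markers summed to 13.4 to 37.4 over all groups, with 0 called by limma. The part of these cells in the cuticle results was not tested.

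In the authors' deposited table of natural log ratios, every cuticle protein gene called here against the control had the same sign, 10 of 10 in Monosiga Yap-TBD, 7 of 7 in Trichoplax Yap S81A, 3 of 3 in Yki S168A and 1 of 1 in Monosiga Yap. The adjusted score in the authors' deposited table was under 0.05 for 3, 4, 2 and 0 of these. The natural log ratios there for TwdlE were 2.70, 2.82 and 3.93 in Monosiga Yap-TBD, Yki S168A and Trichoplax Yap S81A.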

How the data were processed

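RNA sequencing values of 15 libraries in 5 groups of 3 were analysed. The deposited FPKM values were computed by the authors. The submitters' processing notes name CASAVA 1.7.0, TopHat 1.0.14, Cufflinks (no version), Cuffdiff 1.0.2 and build dm3, while the role of each, the annotation and the use of strand are not stated. The authors' deposited natural log ratios over the control are limited in size. The deposited p-value of each gene was the authors', and the adjusted value beside it exceeds 1 in places, so it was read as a score the authors derived from it. The authors' deposited mean on the log2 scale was not used.

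Values were taken to log2(FPKM + 1), with a pseudocount of 1. The 9213 genes that reached an FPKM of 1 in 3 or more libraries were fitted in limma 3.58.1 (R 4.3.3) over all 5 groups, with a variance trend and robust moderation (10 residual degrees of freedom). Tests of the 8 comparisons were two-sided, with Benjamini-Hochberg adjustment over all genes, and genes with adjusted p under 0.05 were called. The median SE was 0.34 for the 33 genes and 0.19 for all. Fold changes are ratios of mean FPKM, and the log2 fold change understates changes of low genes. Depth was estimated from FPKM steps in 441 genes, with transcript lengths of the BDGP6 annotation. Other computations used python 3.11.15, numpy 2.4.6, pandas 2.3.3, scipy 1.17.1 and matplotlib 3.10.9. The limma fit was also run on data simulated from its own estimates of spread. That does not test how it handles genes with few fragments.

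All called cuticle protein genes are named, with the values of all libraries where the higher group mean was at least 5 or the gene was among the 5 highest. Of the other lists, up to 4 called genes per direction against the control are named, and grh, Blimp-1, ftz-f1, EcR, Cyp18a1, kkv, Cda5, ple, Ddc and y in any case. The members and gene lists were chosen with earlier results of these data known. Promoters and proteins were not analysed here. Other pseudocounts, filters, centring, weights, groups in the fit, a replicate block and leaving out each library were tried.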

Additional observations from a re-analysis of the deposited data

How the results depend on the processing

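Of 615 alternative values for the 45 named fold changes, 553 kept their direction and side of the threshold, 62 lost the call and 0 reversed. For 32 of the 45, no alternative lost the call; among these are TwdlE, Cpr97Eb, Cpr12A, Cpr65Ec and Lcp65Ad against the control. Array weights raised the number of genes called against the control to 2 in Monosiga Yap, 18 in Monosiga Yap-TBD, 9 in Yki S168A and 11 in Trichoplax Yap S81A, and to 10 and 9 in Monosiga Yap-TBD against Yki S168A and Trichoplax Yap S81A. With only the compared groups in the fit, 6 were called in Yki S168A against the control, 1 in Trichoplax Yap S81A against Yki S168A and 2 in Monosiga Yap-TBD against Yki S168A; the cause was not tested. Leaving out 1 library gave 0 to 1 calls in Monosiga Yap, 7 to 11 in Monosiga Yap-TBD, 3 to 5 in Yki S168A and 4 to 6 in Trichoplax Yap S81A against the control. It gave 11 to 14 calls in Monosiga Yap-TBD against Monosiga Yap, 1 to 2 in Trichoplax Yap S81A against Yki S168A, 3 to 4 in Monosiga Yap-TBD against Yki S168A and 5 to 6 in Monosiga Yap-TBD against Trichoplax Yap S81A. The value of 5 in Yki S168A came without Trichoplax Yap S81A replicate 1, an alternative added after the data were seen. Same-numbered libraries did not pair (30 correlations from -0.40 to 0.32, 6 of them over 0.1, and 5 of 15 libraries correlating best with their own number). With a replicate block, 10, 4, 6 and 1 genes were called against the control in Monosiga Yap-TBD, Yki S168A, Trichoplax Yap S81A and Monosiga Yap; Cpr66D in Trichoplax Yap S81A lost its call. Shares of all genes called under these other settings are not given here. The counts therefore do not set cuticle protein genes apart from other genes. Depth limits the low members: at the lowest depth an FPKM of 1 rests on a median of 6.8 fragments.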
